A study of Mus musculus with 9 samples.

Results

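Interferon-stimulated genes are switched on when a cell detects interferon, and 40 of them are described here in mouse kidney. They were chosen by name as known targets of type I interferon, of interferon gamma or of both, and all 40 were found among the 55385 genes of the deposited table. RNA was taken from kidneys of male C57BL/6J mice in 3 groups, with 3 mice and 1 poly(A)-selected library per mouse in each. The mice were 8 to 10 weeks old at the start of the experiment, and kidneys were collected at its end, after 4 weeks. HN mice had hyperuricemic nephropathy, produced over 4 weeks with adenine at 0.16 g/kg and potassium oxonate, an inhibitor of urate breakdown, at 2.4 g/kg every other day. PEC mice were HN mice that also received pectolinarigenin, a plant flavonoid, by mouth each day at 25 mg/kg, a dose taken from the paper of the study, since the labels do not give it. Control mice had neither the disease nor the flavonoid. Mice are named by the numbers in their labels, which are 2, 4 and 5 for Control, 4, 8 and 12 for HN and 1, 2 and 3 for PEC, and values of the mice of a group are always given in that order. The libraries held 57714111 to 81069646 counts, with a median of 74397038. The lowest count of a member in a library was 9, for Oas3, and the median over all members and libraries was 1545. Umod, a gene of the thick ascending limb, was at 1032 to 1207 normalised FPKM in the 9 libraries, and the kidney label was borne out in each of them.

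Cells make type I interferons after sensors of foreign or misplaced nucleic acid are triggered, and T and NK cells are the main source of interferon gamma. Type I interferon acts through a receptor and the kinases Jak1 and Tyk2 on genes with interferon-stimulated response elements, whereas interferon gamma acts through Jak1 and Jak2 on genes with gamma-activated sites. The induced genes encode sensors, transcription factors and antiviral proteins, and in kidney they are known to respond to injury and inflammation as well as to infection.

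Levels are given as normalised FPKM (nFPKM), the deposited FPKM, a level corrected for gene length and depth, divided by the scaling factor of the library. Differences were tested with edgeR on the deposited counts of 21392 genes, all 40 members included. A gene is called higher or lower where the p adjusted over all tested genes was at most 0.05 and the fold change at least 1.5. Errors of log2 fold changes are standard errors from 3 mice per group, and p-values measure the spread between these libraries.

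A single mouse stood apart from the others of its group in both HN and PEC mice. HN 8 had the highest level of its group for 38 of the 40 members, against 29.1% of all tested genes, and PEC 3 for 40 of 40, against 35.3%. Summed over the members, expression was 201.7, 233 and 234 nFPKM in Control mice, 525, 1315 and 555 in HN mice and 232, 269 and 1441 in PEC mice. PEC 1 and PEC 2 thus lay close to Control mice, and PEC 3 lay above every HN mouse. In HN mice, 35 members had 1 mouse at least 1.5-fold above both others, against 15.8% of all tested genes, and that mouse was HN 8 each time. The same held for 38 members in PEC mice, against 19.8% of all tested genes, each time with PEC 3 on top, and for 6 members in Control mice, against 21.6%. By TMM-scaled counts, from which all ratios and rankings of mice in this paragraph come, the ratio of the highest to the lowest mouse had a median over the members of 1.42 in Control mice, 2.76 in HN mice and 6.35 in PEC mice, while over all tested genes it was 1.34, 1.28 and 1.34. Within HN mice this ratio ran from 1.11 for Irf1 to 5.04 for Isg15, and within PEC mice from 1.32 for Samd9l to 86.0 for Ifit2. Ifit2 was at 2.56, 0.157 and 13.0 nFPKM in PEC mice, so that its ratio also reflects a low value in PEC 2. Relative to the Control mean, the median member was at 0.86-, 1.11- and 1.05-fold in Control mice, 2.54-, 6.81- and 3.04-fold in HN mice and 1.20-, 1.38- and 8.19-fold in PEC mice. The number of members more than 1.5-fold above the Control mean was 1 in each Control mouse, 33, 36 and 34 in HN mice and 14, 18 and 35 in PEC mice. The share of all tested genes above that limit is not given here. Their median log2 level over the Control mean was 0.00, -0.01 and 0.01 in HN mice and 0.02, 0.00 and 0.03 in PEC mice. The labels do not say what set HN 8 and PEC 3 apart, and whether it lies in the animals or in the libraries was not tested, so that the means of HN and PEC mice rest in part on 2 mice whose difference is open. RNA came from kidney tissue, so that more cells that express a gene and more RNA per cell cannot be told apart.

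**Figure D1:**
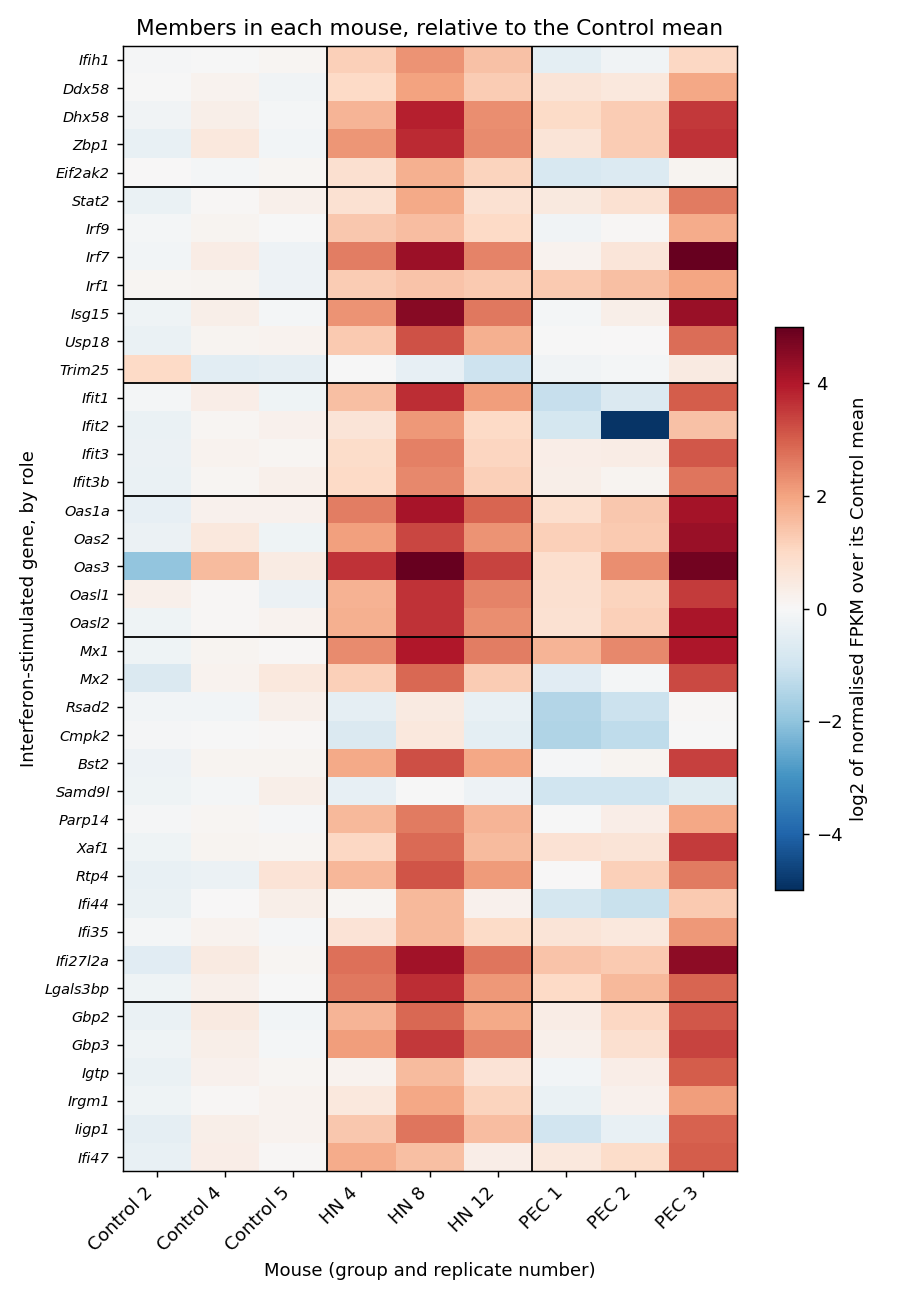
Heat map of the 40 members (rows, by role) in the 9 mice (columns), coloured by log2 nFPKM over the Control mean of each gene. HN 8 and PEC 3 carry the strongest colours, with median members at 6.81-fold and 8.19-fold of the Control mean, against 1.20- and 1.38-fold in PEC 1 and PEC 2.

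HN mice were compared with Control mice to see what the nephropathy changed. Of the 40 members, 22 rose in HN mice (55.0%), against 17.7% of all tested genes called higher, and 0 fell, against 14.7%. No member was called lower at an unadjusted p either, nor by DESeq2 or limma. By TMM-scaled counts, in 34 members every HN mouse lay above every Control mouse, against 28.0% of all tested genes, and in 0 members below, against 27.4%. The groups overlapped for Trim25, Rsad2, Cmpk2, Samd9l, Ifi44 and Igtp, and in nFPKM also for Ifi47, which leaves 33. The median log2 fold change of the members was 2.0, from -0.59 to 3.82, and that of all tested genes 0.00. The 18 members that were not called were Cmpk2, Ifi35, Ifi44, Ifi47, Ifit1, Ifit2, Ifit3, Ifit3b, Igtp, Iigp1, Irf7, Irgm1, Mx2, Rsad2, Samd9l, Stat2, Trim25 and Xaf1. Of these, Cmpk2, Rsad2, Samd9l and Trim25 had a negative log2 fold change, and each turned positive with library totals as the only scaling or with limma on FPKM. The count depended on single mice: it was 7 without HN 8, against 15.1% of all tested genes, and 8, 14 and 10 without Control 2, 4 and 5, against 15.7%, 16.1% and 16.0%. Without PEC 3, whose spread enters the same fit, 33 members were called higher, against 17.6% of all tested genes. Those called higher in each of the 9 fits with 1 mouse left out were 6, namely Eif2ak2, Ifih1, Irf1, Lgals3bp, Mx1 and Parp14. The median was 1.40 without HN 8. With the library totals as the only scaling, the median log2 fold change of all tested genes was 0.56 in this comparison, -0.21 in PEC against HN mice and 0.40 in PEC against Control mice. The share of higher calls among all calls was 54.5% here, 85.7% with library totals, and 81.9% and 83.2% with limma at pseudocounts of 1 and 0.1.

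PEC and HN mice were compared to see what the flavonoid changed in the diseased kidney. Of the 40 members, 3 fell in PEC mice, against 15.3% of all tested genes called lower: Eif2ak2, Ifih1 and Samd9l. None was called higher, against 13.4% of all tested genes, and this count was also 0 at an unadjusted p, with DESeq2 and with limma. Every PEC mouse lay below every HN mouse for these 3 members, against 29.1% of all tested genes. For 0 members every PEC mouse lay above, against 26.3%, and the other 37 overlapped. The median log2 fold change of the members was -0.38, from -1.65 to 0.86, and 11 of the 40 were positive, with a median of -0.02 over all tested genes. This comparison turned on PEC 3: without it, 30 members were called lower, against 14.5% of all tested genes, and the median was -1.72. The 10 not called in that fit were Ifi35, Ifi47, Ifit3, Igtp, Irf1, Mx1, Oas3, Stat2, Trim25 and Xaf1. Without HN 8, without PEC 1 and without PEC 2, only 1 member was called lower, against 12.9%, 13.2% and 14.2% of all tested genes. The median was 0.21 without HN 8, -0.02 without PEC 1 and -0.04 without PEC 2. Limma called 4 members lower, Parp14 being added. With library totals the share of higher calls among all calls went from 46.8% to 29.6%, and limma gave 28.6% and 28.4%. Values of members that missed the threshold do not show that PEC and HN mice were equal, since the spread within both groups was wide.

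**Figure D2:**
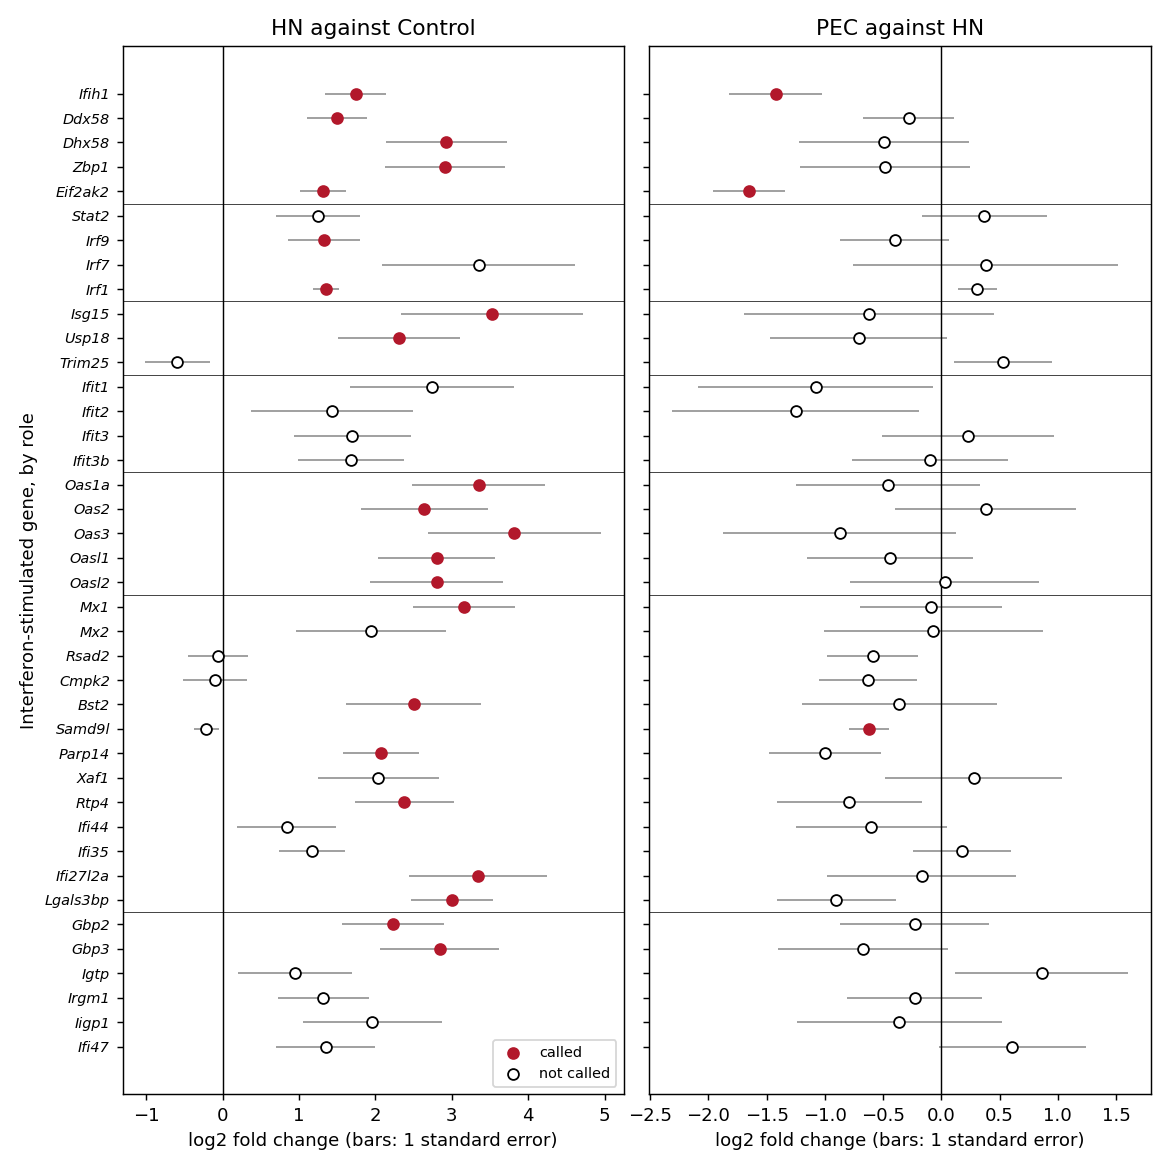
Log2 fold change (horizontal axis) of each of the 40 members in HN against Control mice and in PEC against HN mice, with bars of 1 standard error; filled points were called. In HN against Control mice 22 points are filled on the higher side, and in PEC against HN mice 3 on the lower side.

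PEC mice were also compared with Control mice, to see what remained different from the healthy kidney under treatment. Here 18 of the 40 members were called higher, against 18.9% of all tested genes, and 1, Samd9l, was called lower, against 17.4%. The 18 were Ddx58, Dhx58, Zbp1, Stat2, Irf7, Irf1, Oas1a, Oas2, Oasl1, Oasl2, Mx1, Xaf1, Ifi35, Ifi27l2a, Lgals3bp, Gbp2, Gbp3 and Ifi47. By TMM-scaled counts, every PEC mouse lay above every Control mouse for 17 members (16 in nFPKM, where Gbp3 overlapped), against 29.1% of all tested genes, and below for 1, against 28.2%. The median log2 fold change was 1.74, from -0.83 to 3.73, and 0.04 over all tested genes. Most of these calls ended without PEC 3, which left 5 called higher, Ifi27l2a, Irf1, Lgals3bp, Mx1 and Oas2, against 16.7% of all tested genes, with a median of 0.40. Lower calls without PEC 3 were 3, with Cmpk2 and Rsad2 beside Samd9l, against 15.5% of all tested genes. Control mice mattered as much, since the higher count was 3, 5 and 3 without Control 2, 4 and 5, against 16.6%, 16.8% and 16.7% of all tested genes. Calls that held in all 9 fits with 1 mouse left out were Irf1, Lgals3bp and Mx1 on the higher side and Samd9l on the lower side. The share of higher calls among all calls was 52.1%, and 76.6% with library totals, 70.7% and 70.9% with limma. The 3 comparisons share their mice, so each is given with its own values.

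**Figure D3:**
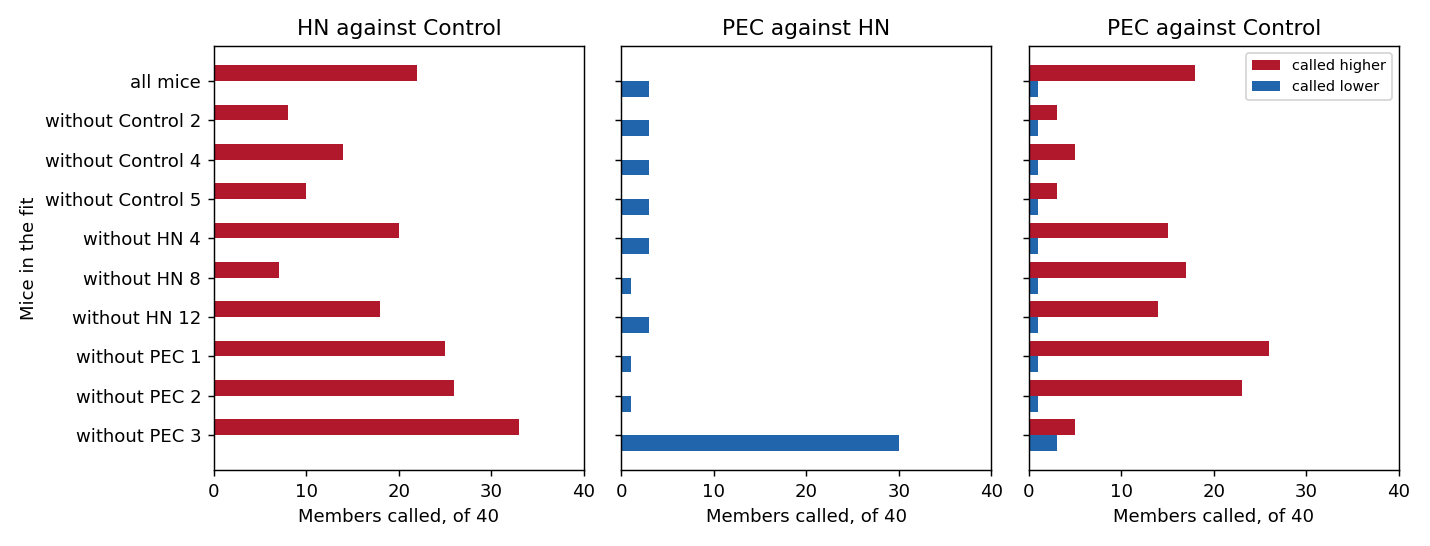
Number of members called (horizontal axis) in each comparison with all 9 mice and in fits that omit 1 mouse at a time (bars). Members lower in PEC against HN mice go from 3 to 30 without PEC 3, and members higher in HN against Control mice from 22 to 7 without HN 8.

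The 5 members that sense foreign nucleic acid all rose in HN mice, against 17.7% of all tested genes. They are the RNA sensors Ifih1 (MDA5) and Ddx58 (RIG-I), the related regulator Dhx58, the Z-form nucleic acid sensor Zbp1, and Eif2ak2 (PKR), a kinase that halts translation on double-stranded RNA. Eif2ak2 (ENSMUSG00000024079, chr17:78852564-78882573, minus strand; all positions of genes are on GRCm38) was at 4.18, 3.84 and 4.35 nFPKM in Control mice, 7.17, 14.3 and 8.79 in HN mice and 2.34, 2.59 and 4.56 in PEC mice. It was high in the 3 HN mice and low in PEC 1 and PEC 2, PEC 3 lay just above the Control mice, and HN mice overlapped with neither other group. Eif2ak2 rose in HN mice (log2 fold change 1.32 ± 0.30, edgeR adjusted p = 0.0069). It fell in PEC mice relative to HN mice (log2 fold change -1.65 ± 0.31, edgeR adjusted p = 0.00279). Both calls held without any 1 mouse, the log2 fold change of PEC against HN staying between -1.99 and -1.32. Against Control mice Eif2ak2 in PEC mice was not called (log2 fold change -0.34 ± 0.30, edgeR adjusted p = 0.389), and its sign turned with library totals, to 0.03.

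Ifih1 (ENSMUSG00000026896, chr2:62595798-62646211, minus strand) was at 1.47, 1.52 and 1.63 nFPKM in Control mice, 3.53, 7.36 and 4.24 in HN mice and 1.09, 1.37 and 3.11 in PEC mice. PEC 3 stayed below the lowest HN mouse, and PEC 1 and PEC 2 were below all Control mice. Ifih1, singled out here after its values were seen, rose in HN mice (log2 fold change 1.74 ± 0.40, edgeR adjusted p = 0.00722). It fell in PEC against HN mice (log2 fold change -1.42 ± 0.40, edgeR adjusted p = 0.0201). The rise held without each mouse in turn, while the call of the fall ended at edgeR adjusted p = 0.0759 without HN 8, 0.0585 without PEC 1 and 0.0648 without PEC 2. Ddx58 was at 3.70, 4.22 and 3.25 nFPKM in Control mice, 7.45, 14.9 and 8.82 in HN mice and 5.82, 5.40 and 14.1 in PEC mice, so that PEC 3 reached the level of HN 8. Ddx58 rose in HN mice (log2 fold change 1.5 ± 0.39, edgeR adjusted p = 0.0134), a call that ended without HN 8 (log2 fold change 1.15, edgeR adjusted p = 0.0527). Zbp1 was at 0.501, 0.914 and 0.579 nFPKM in Control mice, 2.98, 8.57 and 3.33 in HN mice and 1.01, 1.56 and 7.93 in PEC mice. HN 8 and PEC 3 held its highest levels, and all HN and PEC mice were above the Control mice. Zbp1 rose in HN mice (log2 fold change 2.91 ± 0.79, edgeR adjusted p = 0.0154), a call that ended at edgeR adjusted p = 0.0576 without Control 2, 0.0555 without Control 5 and 0.0563 without HN 8. Dhx58 ran from 0.501 to 0.697 nFPKM in Control mice, from 1.84 to 8.40 in HN mice and from 1.12 to 6.70 in PEC mice. The count of sensors higher in HN mice was 3 without Control 2, 3 without Control 5 and 2 without HN 8. Of the 5, 2 fell in PEC against HN mice, against 15.3% of all tested genes. That count was 1 without HN 8, PEC 1 or PEC 2. Without PEC 3 it was 5, against 14.5% of all tested genes. Against Control mice, 3 of 5 were called higher in PEC mice, against 18.9% of all tested genes, but 0 without any 1 of the Control mice, 0 without PEC 3 and 1 with limma at a pseudocount of 1.

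Of the 4 transcription factors, 2 rose in HN mice, Irf1 and Irf9, against 17.7% of all tested genes, and all 4 had every HN mouse above every Control mouse, against 28.0%. Irf1 (ENSMUSG00000018899, chr11:53770014-53777323, plus strand), which is induced strongly by interferon gamma and binds many of the same promoters, was at 4.69, 4.89 and 3.74 nFPKM in Control mice, 10.7, 11.9 and 10.8 in HN mice and 11, 12.7 and 17.2 in PEC mice. It was the member with the smallest spread in HN mice, and both HN and PEC mice lay wholly above the Control mice. Irf1 had a mean of 4.44 ± 0.615 nFPKM (SD, n = 3) in Control mice, 11.2 ± 0.652 in HN mice and 13.6 ± 3.19 in PEC mice. It rose in HN mice (log2 fold change 1.35 ± 0.17, edgeR adjusted p = 0.000255). In PEC mice it was called higher than in Control mice (log2 fold change 1.66 ± 0.18, edgeR adjusted p = 8.71e-05). Both calls held without each mouse. Between PEC and HN mice the difference missed the threshold (log2 fold change 0.31 ± 0.17, edgeR adjusted p = 0.186).

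Irf7 (ENSMUSG00000025498, chr7:141262706-141266481, minus strand), the factor that amplifies type I interferon production, was at 1.64, 2.34 and 1.52 nFPKM in Control mice, 10.5, 35.3 and 9.99 in HN mice and 2.02, 2.73 and 66.3 in PEC mice. PEC 3 was the highest of all mice, HN 8 came next, and PEC 1 and PEC 2 were near the Control mice. The higher level in HN mice missed the threshold (log2 fold change 3.35 ± 1.26, edgeR adjusted p = 0.059). It was called when any 1 PEC mouse was left out, with edgeR adjusted p = 0.0306 without PEC 1, 0.0375 without PEC 2 and 0.000971 without PEC 3. Library totals, limma and a fit of only these groups also called it. Irf7 was not called between PEC and HN mice (log2 fold change 0.38 ± 1.14, edgeR adjusted p = 0.821). Without PEC 3 it was lower in PEC mice (log2 fold change -2.93, edgeR adjusted p = 0.00628), and limma, too, gave a negative sign. It was called higher in PEC than in Control mice (log2 fold change 3.73 ± 1.28, edgeR adjusted p = 0.0387) although the groups overlapped. This rested on PEC 3, without which the log2 fold change was 0.42 (edgeR adjusted p = 0.563). The call also ended with edgeR adjusted p = 0.106 without Control 2, 0.088 without Control 4, 0.109 without Control 5, 0.0541 without HN 4 and 0.0515 without HN 12.

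Irf9, the DNA-binding subunit of the type I complex, was at 3.38, 3.98 and 3.61 nFPKM in Control mice, 9.17, 10.7 and 7.26 in HN mice and 3.21, 3.84 and 13.2 in PEC mice. PEC 1 and PEC 2 were at about the level of the Control mice, and PEC 3 was above the highest HN mouse. Its rise in HN mice was close to the threshold (log2 fold change 1.33 ± 0.47, edgeR adjusted p = 0.049), and the call ended at edgeR adjusted p = 0.124 without Control 2, 0.0975 without Control 4, 0.115 without Control 5, 0.0997 without HN 4, 0.128 without HN 8 and 0.0665 without HN 12. Stat2, its partner in that complex, ran from 2.03 to 2.98 nFPKM in Control mice, from 4.30 to 9.34 in HN mice and from 3.54 to 15.1 in PEC mice, and was called in PEC against Control mice only. The count of factors higher in HN mice was 1 without any 1 Control or HN mouse, 3 without PEC 1 or PEC 2 and 4 without PEC 3. Library totals, limma and the fit of only these groups gave 4, and a fit with no filter on low counts 1. In PEC against HN mice 0 of 4 were called, against 15.3% of all tested genes lower and 13.4% higher. This count was also 0 at an unadjusted p and with DESeq2 and limma. Without PEC 3, 2 were lower, against 14.5% of all tested genes. Relative to Control mice 3 of 4 were called higher in PEC mice, against 18.9% of all tested genes. That count was 1 without any 1 of Control 2, Control 4, Control 5, HN 4, HN 12 and PEC 3. It was 2 with DESeq2, with limma, with no filter on low counts and in the fit of only these groups. With library totals or without PEC 1 it was 4.

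The ISG15 system couples a ubiquitin-like protein to other proteins. Isg15 (ENSMUSG00000035692, chr4:156199455-156200796, minus strand) encodes that protein, Usp18 the protease that removes it and damps the type I receptor, and Trim25 a ligase that acts on RIG-I. Promoters are shown for 3 members that hold the core of the interferon-stimulated response element, GAAANNGAAA. Of the members with it that were called higher in HN mice, these had the largest fold changes. The promoter of Isg15 holds the core at 3 overlapping places. It is printed 5′ to 3′ on the minus strand, chr4:156200769-156201068 of GRCm38.p6 from RefSeq over 300 bases around the start. The cores are in capitals, and the first begins 78 and the last 66 bases before the start.
Isg15: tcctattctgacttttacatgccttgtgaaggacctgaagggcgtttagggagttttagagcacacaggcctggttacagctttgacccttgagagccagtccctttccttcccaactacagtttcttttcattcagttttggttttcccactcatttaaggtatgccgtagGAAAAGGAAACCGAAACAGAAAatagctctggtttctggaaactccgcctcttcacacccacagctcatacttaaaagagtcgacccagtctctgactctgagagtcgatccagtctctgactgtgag
Searched on both strands, this core was found in 16 of the 30 members that the promoter table holds (53.3%), against 3.99% of all 27025 genes in it. The core of the gamma-activated site, TTCNNNGAA, was found in 7 of the 30 (23.3%), against 9.55% of all genes. The response element core was present in 3 of 3 sensors, 4 of 5 GTPases, 3 of 4 IFIT genes, 2 of 4 OAS genes, 1 of 2 genes of the ISG15 system, 1 of 4 transcription factors and 2 of 8 other effectors. A match describes letters in the sequence and does not show that a factor binds there. The members were chosen as known interferon targets, so their higher share is no independent support for a response to interferon. Oas2, Mx1, Mx2, Usp18, Ifi27l2a, Dhx58, Zbp1, Rtp4, Parp14 and Iigp1 were not matched in that table.

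Isg15 was at 4.61, 6.56 and 4.96 nFPKM in Control mice, 25, 126 and 33.4 in HN mice and 5.03, 6.51 and 106 in PEC mice. HN 8 and PEC 3 were far above all other mice, HN 4 and HN 12 lay between, and PEC 1 and PEC 2 were within the Control range. The means were 5.38 ± 1.04 nFPKM (SD, n = 3) in Control mice, 61.3 ± 55.8 in HN mice and 39.3 ± 58 in PEC mice. Isg15 rose in HN mice (log2 fold change 3.53 ± 1.19, edgeR adjusted p = 0.0392), a call that ended at edgeR adjusted p = 0.111 without Control 2, 0.0924 without Control 4, 0.108 without Control 5, 0.139 without HN 8 and 0.0513 without HN 12. It was not called in PEC against HN mice (log2 fold change -0.62 ± 1.07, edgeR adjusted p = 0.685). Without PEC 3 it was lower in PEC mice (log2 fold change -3.38, edgeR adjusted p = 0.00717). Without HN 8 the sign turned, to 0.44. Against Control mice it missed the threshold in PEC mice (log2 fold change 2.92 ± 1.16, edgeR adjusted p = 0.0666), and was called at edgeR adjusted p = 0.0305 without PEC 1 and 0.0362 without PEC 2.

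Usp18 was at 1.04, 1.43 and 1.45 nFPKM in Control mice, 3.16, 11.6 and 4.44 in HN mice and 1.29, 1.31 and 8.93 in PEC mice, again with HN 8 and PEC 3 highest and PEC 1 and PEC 2 among the Control mice. The rise of Usp18 in HN mice was called (log2 fold change 2.31 ± 0.80, edgeR adjusted p = 0.044), a call that ended at edgeR adjusted p = 0.124 without Control 2, 0.1 without Control 4, 0.0993 without Control 5, 0.169 without HN 8 and 0.0594 without HN 12. Trim25 behaved differently, at 24.9, 8.70 and 9.23 nFPKM in Control mice, 12.6, 9.40 and 6.13 in HN mice and 11, 11.8 and 17.3 in PEC mice. Its highest value was in Control 2, the groups overlapped, and it was not called in HN mice (log2 fold change -0.59 ± 0.42, edgeR adjusted p = 0.31). Without Control 2 the sign turned, to 0.09, as it did with limma. The count of the ISG15 system higher in HN mice, 2 of 3 against 17.7% of all tested genes, was 0 without any 1 of Control 2, 4 and 5, HN 8 and HN 12, and 1 with no filter on low counts. None of the 3 was called in PEC against HN mice, also at an unadjusted p and with DESeq2 and limma, against 15.3% of all tested genes lower. Without PEC 3, 2 were lower, against 14.5%. None was called in PEC against Control mice either, against 18.9% of all tested genes called higher. An unadjusted p, DESeq2, library totals, and the fits without PEC 1 or PEC 2 called 1 there, and limma 0.

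**Figure D4:**
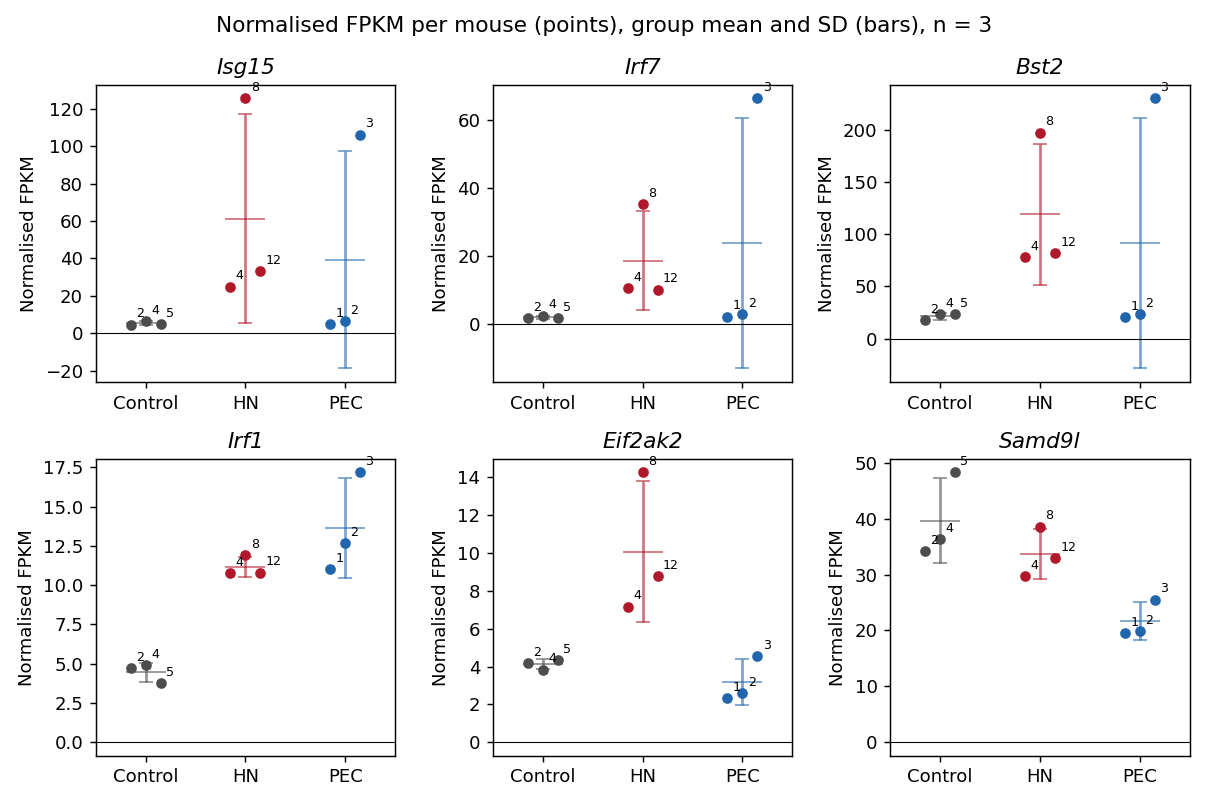
Levels of Isg15, Irf7, Bst2, Irf1, Eif2ak2 and Samd9l in nFPKM (vertical axes) for each mouse (points), with the mean and SD of each group (bars). PEC 3 lies above HN 4 and HN 12 for Isg15 and above all HN mice for Irf7 and Bst2, the 3 PEC mice lie together above Control mice for Irf1, and all PEC mice lie below all HN mice for Eif2ak2 and Samd9l.

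The 4 IFIT genes encode proteins that bind viral RNA and block its translation, and 0 of 4 were called higher in HN mice against 17.7% of all tested genes, although every HN mouse lay above every Control mouse for each, against 28.0%. Ifit3 (ENSMUSG00000074896, chr19:34583531-34588731, plus strand) was at 14.1, 19.5 and 18.3 nFPKM in Control mice, 32.5, 97.2 and 36.2 in HN mice and 21.3, 21.9 and 148 in PEC mice. Ifit3b (ENSMUSG00000062488, chr19:34607970-34613401, plus strand), a near copy beside it whose reads may be split with those of Ifit3, was at 4.57, 6.17 and 6.93 nFPKM in Control mice, 11.4, 31.1 and 13.2 in HN mice and 7.05, 6.30 and 37.6 in PEC mice. PEC 3 was the highest of all mice for both, followed by HN 8. For Ifit3 the difference between HN and Control mice missed the threshold (log2 fold change 1.70 ± 0.76, edgeR adjusted p = 0.105) but was called without PEC 3 (edgeR adjusted p = 0.00865). Ifit3 was not called in PEC against HN mice (log2 fold change 0.23 ± 0.74, edgeR adjusted p = 0.837), and the sign turned with limma and without HN 4, HN 12 or PEC 3, reaching -1.32 without PEC 3 (edgeR adjusted p = 0.0514).

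Ifit1 was at 2.14, 2.86 and 1.97 nFPKM in Control mice, 6.58, 29.5 and 9.77 in HN mice and 1.04, 1.39 and 18.9 in PEC mice. PEC 1 and PEC 2 were below the Control mice, whereas PEC 3 was between HN 12 and HN 8. Ifit1 missed the threshold in HN mice (log2 fold change 2.74 ± 1.07, edgeR adjusted p = 0.068), and was called at edgeR adjusted p = 0.0403 without PEC 1, 0.0495 without PEC 2 and 0.00327 without PEC 3. Ifit2 ran from 3.70 to 5.53 nFPKM in Control mice, from 7.37 to 21.3 in HN mice and from 0.157 in PEC 2 to 13.0 in PEC 3, the widest spread of any member. The count of IFIT genes higher in HN mice was 2 at an unadjusted p, 1 with DESeq2, 3 with limma or library totals, 4 in the fit of only these groups, and 1, 1 and 3 without PEC 1, PEC 2 and PEC 3. None was called in PEC against HN mice, also at an unadjusted p and with DESeq2 and limma, against 15.3% of all tested genes lower. Without PEC 3, 3 were lower, against 14.5%. Between PEC and Control mice 0 were called, against 18.9% of all tested genes called higher. This count was 2 at an unadjusted p or with library totals, 0 with DESeq2 and limma, and 1 and 2 without PEC 1 and PEC 2.

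All 5 OAS genes rose in HN mice, against 17.7% of all tested genes. The OAS enzymes make a short chain of adenosines that activates the nuclease RNase L, while the OASL proteins regulate RNA sensing. Reads of Oas1a and the Oasl genes may be shared with near-identical relatives, so their levels are uncertain to that extent. Promoters of Oas1a and Oas3, chosen in the same way as that of Isg15, hold the response element core, in capitals, on the strand of the gene. They are printed 5′ to 3′ on the minus strand of GRCm38.p6 from RefSeq, chr5:120907476-120907775 for Oas1a and chr5:120777610-120777909 for Oas3. Oas1a has 2 overlapping cores that begin 20 and 14 bases before its start, and Oas3 has 1 that begins 75 bases before.
Oas1a: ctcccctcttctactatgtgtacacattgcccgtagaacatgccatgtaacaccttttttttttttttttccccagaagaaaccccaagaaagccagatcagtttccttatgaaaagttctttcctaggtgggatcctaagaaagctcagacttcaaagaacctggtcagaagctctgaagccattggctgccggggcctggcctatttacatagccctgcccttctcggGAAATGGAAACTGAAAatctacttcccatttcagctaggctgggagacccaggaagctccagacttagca
Oas3: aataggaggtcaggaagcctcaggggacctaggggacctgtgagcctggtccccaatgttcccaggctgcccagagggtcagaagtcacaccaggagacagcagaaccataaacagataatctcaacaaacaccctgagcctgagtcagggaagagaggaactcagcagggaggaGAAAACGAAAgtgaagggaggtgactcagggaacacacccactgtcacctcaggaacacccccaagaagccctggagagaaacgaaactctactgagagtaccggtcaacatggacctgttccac
Oas1a (ENSMUSG00000052776, chr5:120896256-120907521, minus strand) was at 1.41, 2.15 and 2.13 nFPKM in Control mice, 11, 32.2 and 14.0 in HN mice and 3.34, 4.70 and 33.0 in PEC mice. HN 8 and PEC 3 were nearly equal and highest, and all PEC mice were above all Control mice. Oas1a rose in HN mice (log2 fold change 3.35 ± 0.87, edgeR adjusted p = 0.0128), a call that ended without Control 2 (edgeR adjusted p = 0.0502). Between PEC and HN mice it was not called (log2 fold change -0.46 ± 0.79, edgeR adjusted p = 0.684). It was lower without PEC 3 (log2 fold change -2.22, edgeR adjusted p = 0.00774), and the sign turned without HN 8, to 0.15. It was called higher in PEC than in Control mice (log2 fold change 2.90 ± 0.86, edgeR adjusted p = 0.0212), a call that ended at edgeR adjusted p = 0.0719 without Control 2, 0.0568 without Control 4, 0.0586 without Control 5 and 0.0692 without PEC 3.

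Oasl2 was at 1.21, 1.46 and 1.58 nFPKM in Control mice, 4.77, 17.4 and 7.00 in HN mice and 2.41, 3.19 and 23.6 in PEC mice. PEC 3 was highest, and all HN and PEC mice were above the Control mice. Oasl2 rose in HN mice (log2 fold change 2.80 ± 0.87, edgeR adjusted p = 0.0286), a call that ended at edgeR adjusted p = 0.0883 without Control 2, 0.0791 without Control 4, 0.0745 without Control 5 and 0.103 without HN 8. Oasl1 was at 1.01, 0.878 and 0.694 nFPKM in Control mice, 2.84, 10.3 and 4.70 in HN mice and 1.46, 1.83 and 9.64 in PEC mice. HN 8 was highest and PEC 3 next. Oas3 (ENSMUSG00000032661, chr5:120753098-120777661, minus strand) was the least abundant of the 5, at 0.0122, 0.144 and 0.0643 nFPKM in Control mice, 0.593, 2.07 and 0.499 in HN mice and 0.0861, 0.245 and 1.38 in PEC mice. Its Control levels rest on few counts. Oas2 ran from 0.586 to 1.01 nFPKM in Control mice, from 2.98 to 7.19 in HN mice and from 1.64 to 14.0 in PEC mice. The count of OAS genes higher in HN mice was 1, 2 and 1 without Control 2, 4 and 5, and 1 without HN 8. None was called in PEC against HN mice, also at an unadjusted p and with DESeq2 and limma, against 15.3% of all tested genes lower. Without PEC 3, 4 were lower, against 14.5%. Higher in PEC than in Control mice were 4 of 5, all but Oas3, against 18.9% of all tested genes. That count was 0, 1 and 0 without Control 2, 4 and 5, 1 without PEC 3 and 1 with limma at a pseudocount of 1.

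Among the 13 other antiviral effectors and induced genes, 6 rose in HN mice: Mx1, Bst2, Parp14, Rtp4, Ifi27l2a and Lgals3bp, against 17.7% of all tested genes. Bst2 (ENSMUSG00000046718, chr8:71534255-71537456, minus strand), or tetherin, holds budding virus at the cell surface, and it had the highest mean of the members over the 9 mice, though not in Control mice, PEC 1 or PEC 2, at 17.7, 23.4 and 23.4 nFPKM in Control mice, 78.5, 198 and 82.2 in HN mice and 20.7, 23.6 and 231 in PEC mice. PEC 3 was above HN 8, and PEC 1 and PEC 2 were at Control levels. Bst2 rose in HN mice (log2 fold change 2.5 ± 0.88, edgeR adjusted p = 0.0478), close to the threshold, and the call ended at edgeR adjusted p = 0.129 without Control 2, 0.109 without Control 4, 0.11 without Control 5, 0.0647 without HN 4, 0.15 without HN 8 and 0.0654 without HN 12. Bst2 was not called in PEC against HN mice (log2 fold change -0.36 ± 0.84, edgeR adjusted p = 0.769). It was lower without PEC 3 (log2 fold change -2.40, edgeR adjusted p = 0.00307). The sign turned without HN 8, PEC 1 or PEC 2, to 0.21, 0.11 and 0.10.

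Ifi27l2a, a small hydrophobic protein of unsettled function with close relatives that may share its reads, was at 6.62, 13.3 and 10.4 nFPKM in Control mice, 64.6, 176 and 62.5 in HN mice and 26.0, 24 and 214 in PEC mice. All HN and PEC mice were above the Control mice, PEC 3 most of all. Ifi27l2a rose in HN mice (log2 fold change 3.34 ± 0.90, edgeR adjusted p = 0.0149), a call that ended at edgeR adjusted p = 0.0569 without Control 2 and 0.0508 without HN 8. It was called higher in PEC than in Control mice (log2 fold change 3.17 ± 0.89, edgeR adjusted p = 0.017), a call that ended at edgeR adjusted p = 0.0616 without Control 2 and 0.0542 without Control 5. Lgals3bp (ENSMUSG00000033880, chr11:118392751-118402092, minus strand), a secreted glycoprotein that binds galectin-3, was at 8.93, 12.3 and 10.4 nFPKM in Control mice, 65.5, 137 and 47.0 in HN mice and 21, 31.9 and 78.3 in PEC mice. Its levels were separate from Control mice in both groups, and PEC 1 and PEC 2 were below all HN mice while PEC 3 was between HN 4 and HN 8. Lgals3bp rose in HN mice (log2 fold change 3.0 ± 0.54, edgeR adjusted p = 0.00187). It was higher in PEC than in Control mice as well (log2 fold change 2.09 ± 0.52, edgeR adjusted p = 0.00971). Both calls held without each mouse in turn.

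Samd9l (ENSMUSG00000047735, chr6:3372257-3399572, minus strand), which restrains translation and cell growth, did not follow the others, at 34.2, 36.3 and 48.3 nFPKM in Control mice, 29.7, 38.6 and 32.9 in HN mice and 19.5, 19.9 and 25.5 in PEC mice. Its highest level was in a Control mouse, HN and Control mice overlapped, and all PEC mice were below all others. It was not called in HN against Control mice (log2 fold change -0.21 ± 0.16, edgeR adjusted p = 0.36), where the sign turned to 0.36 with library totals and 0.33 with limma. Samd9l fell in PEC against HN mice (log2 fold change -0.62 ± 0.17, edgeR adjusted p = 0.0161), a call that ended at edgeR adjusted p = 0.0594 without HN 8, 0.0566 without PEC 1 and 0.0514 without PEC 2. It was called lower in PEC than in Control mice (log2 fold change -0.83 ± 0.17, edgeR adjusted p = 0.00312) in every fit with 1 mouse left out, but its fold was under 1.5 with library totals (log2 fold change -0.46) and limma (-0.49 and -0.51). Mx1, a GTPase gene that was called in HN and PEC mice against Control mice in every fit with 1 mouse left out, was at 0.159, 0.204 and 0.193 nFPKM in Control mice, 0.950, 2.94 and 1.10 in HN mice and 0.603, 0.969 and 3.03 in PEC mice. Every HN and PEC mouse was above every Control mouse for Mx1.

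Rsad2 (viperin) and Cmpk2, neighbouring genes that both act on nucleotides, were not called in any comparison. Rsad2 was at 7.64, 7.68 and 9.95 nFPKM in Control mice, 6.05, 11.4 and 6.42 in HN mice and 3.02, 3.94 and 8.66 in PEC mice. Cmpk2 was at 5.61, 5.76 and 6.13 nFPKM in Control mice, 3.56, 8.37 and 4.13 in HN mice and 2.08, 2.41 and 5.73 in PEC mice. For both, HN 8 was highest of the HN mice, HN 4 and HN 12 were below the Control mice, and PEC 1 and PEC 2 were lowest of all. Parp14, an ADP-ribosyltransferase that was higher in HN mice in every fit with 1 mouse left out, was at 2.43, 2.73 and 2.43 nFPKM in Control mice, 7.67, 15.5 and 8.12 in HN mice and 2.51, 3.22 and 9.68 in PEC mice. The other 5, Mx2, Rtp4, Xaf1, Ifi44 and Ifi35, ran from 0.220 to 9.03 nFPKM in Control mice, from 0.828 to 24.96 in HN mice and from 0.239 to 35.8 in PEC mice, with Mx2 lowest and Ifi35 highest in each group. The count of this group higher in HN mice was 3 without Control 2 or HN 8, 9 without PEC 3 and 9 in the fit of only these groups. Samd9l alone, 1 of 13, was lower in PEC against HN mice, against 15.3% of all tested genes. That count was 0 without HN 8, PEC 1 or PEC 2, 2 with limma and 0 with a fold of at least 2. Without PEC 3 it was 10, against 14.5% of all tested genes. Higher in PEC than in Control mice were 5 of 13, against 18.9% of all tested genes, and 2, 3 and 2 without Control 2, 4 and 5, 8 without PEC 1, 3 without PEC 3 and 8 with library totals. The 1 lower there, Samd9l, stood against 17.4% of all tested genes. It was joined by 2 more without PEC 3, against 15.5%.

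The 6 GTPases induced by interferon gamma act against microbes inside cells, and 2 of them rose in HN mice, Gbp2 and Gbp3, against 17.7% of all tested genes. Gbp2, a guanylate-binding protein, was at 4.15, 7.25 and 4.82 nFPKM in Control mice, 17.0, 38.7 and 19.3 in HN mice and 6.75, 10.8 and 45.2 in PEC mice. Its PEC mice reached from just under the highest Control mouse to above HN 8. Gbp2 rose in HN mice (log2 fold change 2.23 ± 0.67, edgeR adjusted p = 0.0253), a call that ended at edgeR adjusted p = 0.0844 without Control 2, 0.0786 without Control 5 and 0.0881 without HN 8. Igtp (Irgm3) was at 6.67, 9.58 and 8.90 nFPKM in Control mice, 9.44, 25.1 and 13.2 in HN mice and 7.62, 10.6 and 67.2 in PEC mice. Irgm1, a regulator of the family, was at 7.92, 9.59 and 10.5 nFPKM in Control mice, 13.5, 35.2 and 19.9 in HN mice and 7.36, 10.9 and 39.4 in PEC mice. PEC 3 was the highest mouse for both, and for Igtp HN 4 lay within the Control range. Igtp was called neither in HN against Control mice (log2 fold change 0.95 ± 0.75, edgeR adjusted p = 0.353) nor in PEC against HN mice (log2 fold change 0.86 ± 0.74, edgeR adjusted p = 0.395), where its sign turned without PEC 3, to -0.78. Irgm1 missed the threshold in HN mice (log2 fold change 1.32 ± 0.59, edgeR adjusted p = 0.106) and was called without PEC 3 (edgeR adjusted p = 0.0116).

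Gbp3 ran from 2.63 to 3.72 nFPKM in Control mice, from 13.0 to 35.4 in HN mice and from 3.64 to 31.3 in PEC mice. Iigp1 ran from 1.59 to 2.67 nFPKM in Control mice, from 5.47 to 13.8 in HN mice and from 1.13 to 16.8 in PEC mice. Ifi47 was at 1.65, 2.71 and 2.24 nFPKM in Control mice, 7.77, 6.12 and 2.70 in HN mice and 3.12, 4.06 and 17.7 in PEC mice, with HN 4 above HN 8. Trim25 was the other member for which HN 8 was not the highest HN mouse. The count of GTPases higher in HN mice was 0 without Control 2, Control 5 or HN 8, 5 without PEC 3, 5 in the fit of only these groups and with library totals, and 4 and 5 with limma. None was called in PEC against HN mice, also at an unadjusted p and with DESeq2 and limma, against 15.3% of all tested genes lower. Without PEC 3, 4 were lower, against 14.5%. Gbp2, Gbp3 and Ifi47, 3 of the 6, were called higher in PEC than in Control mice, against 18.9% of all tested genes. That count was 0 without any 1 of the Control mice or PEC 3, and 1 in the fit of only these groups.

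Of 39 other genes of the interferon pathway, 29 were abundant enough to be tested, and 16 of these rose in HN mice, against 17.7% of all tested genes, and 0 fell, against 14.7%; at an unadjusted p and with DESeq2 and limma 0 fell as well. The ligands were at the limit of detection. Ifna1, Ifna2, Ifna4, Ifna5, Ifne and Ifnl2 had 0 counts in all 9 libraries, where a count of 0 allows up to 3 by counting error. Ifnb1 had 8 counts in HN 4, 4 in PEC 3 and 0 elsewhere. Ifnk had 5 counts in Control 5, 5 in HN 4, 12 in HN 8 and 0 elsewhere, Ifnl3 had 3 in Control 2 and 0 elsewhere, and Ifnz had 2 to 7 in 7 libraries and 0 in HN 4 and PEC 3. Ifng stayed at or below 0.163 nFPKM and was not called. Those that rose in HN mice were the receptor chains Ifnar2, Ifngr1, Ifngr2, Ifnlr1 and Il10rb, the kinase Tyk2, the sensing and signalling genes Tlr7, Tlr9, Myd88, Cgas, Tmem173, Ikbke and Irf8, and the negative regulators Socs1, Socs3 and Adar. The median log2 fold change of the 29 was 0.98 in HN against Control mice, -0.26 in PEC against HN mice and 0.77 in PEC against Control mice. The calls of 3 of these genes ended without a single mouse: Ifnlr1 without Control 4 (log2 fold change 0.55), Tyk2 without HN 8 (0.56), and Adar without Control 2, Control 5 or HN 8 (edgeR adjusted p = 0.0506, 0.0599 and 0.0695).

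Ifngr1, the ligand-binding chain of the interferon gamma receptor, was at 8.06, 8.42 and 6.66 nFPKM in Control mice, 21.9, 23.5 and 20.4 in HN mice and 8.76, 13.8 and 11.8 in PEC mice. Its HN mice agreed closely, and its PEC mice lay between the other groups without overlap with either. It rose in HN mice (log2 fold change 1.53 ± 0.16, edgeR adjusted p = 8.18e-05). It fell in PEC against HN mice (log2 fold change -0.92 ± 0.16, edgeR adjusted p = 0.00205). Tlr9, an endosomal DNA sensor, was at 0.208, 0.156 and 0.296 nFPKM in Control mice, 1.85, 4.72 and 2.35 in HN mice and 0.268, 0.519 and 0.631 in PEC mice. Cgas, the cytosolic DNA sensor, was at 0.269, 0.373 and 0.257 nFPKM in Control mice, 1.49, 1.40 and 0.973 in HN mice and 0.488, 0.656 and 0.430 in PEC mice. Both were highest in HN mice with no overlap, and in PEC 3 neither approached the HN mice. Tlr9 rose in HN mice (log2 fold change 3.77 ± 0.47, edgeR adjusted p = 0.000214). Tlr9 fell in PEC against HN mice (log2 fold change -2.63 ± 0.44, edgeR adjusted p = 0.00173). Cgas rose in HN mice (log2 fold change 2.12 ± 0.26, edgeR adjusted p = 0.000188). Cgas fell in PEC against HN mice (log2 fold change -1.28 ± 0.25, edgeR adjusted p = 0.00377). Socs1, an inhibitor of Jak kinases, was at 0.220, 0.180 and 0.180 nFPKM in Control mice, 1.05, 1.5 and 1.32 in HN mice and 0.210, 0.127 and 0.593 in PEC mice. It, too, rose in HN mice (log2 fold change 2.71 ± 0.52, edgeR adjusted p = 0.0025). The level of Socs1 fell in PEC against HN mice (log2 fold change -2.03 ± 0.50, edgeR adjusted p = 0.0112), with no overlap. These calls of Ifngr1, Tlr9, Cgas and Socs1 held without each mouse in turn.

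The kinase Jak2 was at 10.2, 11.1 and 9.14 nFPKM in Control mice, 14.7, 13.6 and 11.4 in HN mice and 2.97, 5.78 and 3.40 in PEC mice. All PEC mice were below all others. It fell in PEC mice relative to HN mice (log2 fold change -1.69 ± 0.23, edgeR adjusted p = 0.000511). Relative to Control mice it fell as well (log2 fold change -1.29 ± 0.23, edgeR adjusted p = 0.00147), and both calls held without each mouse in turn. Pathway genes that fell in PEC against HN mice were 9 of 29, against 15.3% of all tested genes, namely Ifngr1, Ifngr2, Jak1, Jak2, Tlr3, Tlr7, Tlr9, Cgas and Socs1. Called higher there was 1, Irf3, against 13.4%, but by neither limma nor library totals. The call of Jak1 ended without HN 4 (log2 fold change -0.57) and without PEC 3 (-0.56). Those of Tlr3 and Tlr7 ended without HN 4, HN 8, PEC 2 or PEC 3, with edgeR adjusted p from 0.0557 to 0.139, and likewise without HN 12 for Tlr3 (0.0936) and without PEC 1 for Tlr7 (0.0882). The fall count was 6 without HN 4. In PEC against Control mice 12 were higher, against 18.9% of all tested genes, namely Ifnar2, Ifngr1, Ifngr2, Ifnlr1, Il10rb, Myd88, Cgas, Tmem173, Ikbke, Irf8, Socs3 and Trex1, and Jak2 alone was lower, against 17.4%, with Tbk1 added without PEC 3 (log2 fold change -0.63). The higher count was 18 with library totals and with limma at a pseudocount of 0.1, and 6 with a fold of at least 2. The call of Trex1 ended without Control 2, 4 or 5, PEC 1 or PEC 3 (edgeR adjusted p from 0.0568 to 0.0968). That of Cgas ended without Control 2, Control 5 or PEC 2 (edgeR adjusted p = 0.0709, 0.0703 and 0.0802), and that of Ifngr1 without Control 5 (log2 fold change 0.51) or PEC 2 (0.46).

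**Figure D5:**
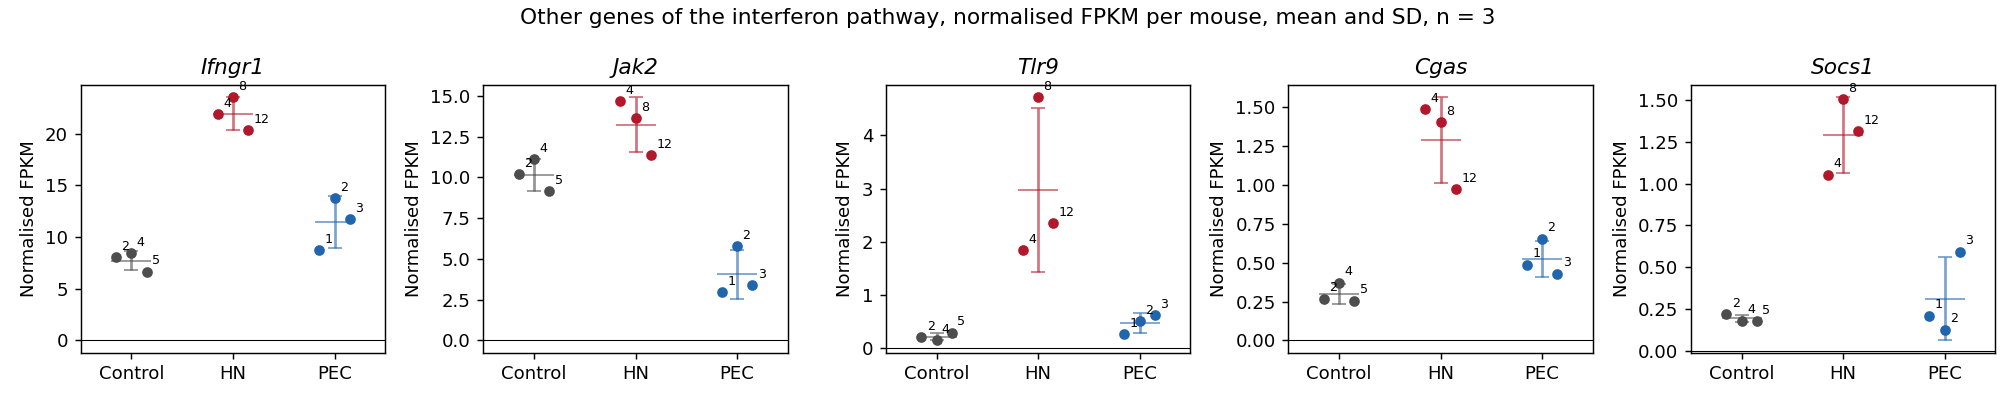
Levels of Ifngr1, Jak2, Tlr9, Cgas and Socs1 in nFPKM (vertical axes) for each mouse (points), with the mean and SD of each group (bars). For each of them all PEC mice lie below all HN mice.

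Most markers of macrophages and of T and NK cells were called higher in HN mice, as were 22 of the 40 members. For comparison with the counts below, the shares of all tested genes with a higher and a lower call were 17.7% and 14.7% in HN mice, 13.4% and 15.3% in PEC against HN mice, and 18.9% and 17.4% in PEC against Control mice. Of the 10 macrophage markers, 10 rose in HN mice and 9 fell in PEC against HN mice. All 10 were also higher in PEC mice than in Control mice. Their sum was 70.8, 80.7 and 70.6 nFPKM in Control mice, 1121, 1130 and 954 in HN mice and 429, 469.5 and 594 in PEC mice. By this sum HN 8 and PEC 3 did not stand apart as they did for the members. By TMM-scaled counts, HN 8 was highest of its group for 4 of the 10 and PEC 3 for 8, against 29.1% and 35.3% of all tested genes. The ratio of the highest to the lowest mouse had a median of 1.29 in HN mice and 1.5 in PEC mice. Lyz2, with the highest mean of the macrophage markers over the 9 mice, was at 18.7, 17.8 and 17.2 nFPKM in Control mice, 514, 461 and 431 in HN mice and 206, 208 and 241 in PEC mice. T and NK cell markers rose in HN mice in 7 of 10. Their sum was 3.95, 5.15 and 3.38 nFPKM in Control mice, 14.2, 22.7 and 15.7 in HN mice and 9.28, 12.3 and 14.4 in PEC mice. HN 8 and PEC 3 were the highest of their groups, and Trac had the highest mean over the 9 mice. Gzma was at 0.0611, 0.577 and 0.424 nFPKM in Control mice, 0.410, 0.873 and 0.588 in HN mice and 0.0861, 0.176 and 1.24 in PEC mice. Gzmb was at 0.330, 0.289 and 0.0643 nFPKM in Control mice, 0.932, 1.60 and 0.384 in HN mice and 0.0287, 0.421 and 0.994 in PEC mice. HN 8 and PEC 3 were the highest of their groups for both. Their low values rest on few counts, with 5 in Control 2 and 8 in PEC 1 for Gzma, and 6 in Control 5 and 4 in PEC 1 for Gzmb. Over all 10 markers by TMM-scaled counts, HN 8 was highest for 9 and HN 12 for 1. Among PEC mice, PEC 3 was highest for 6, PEC 2 for 3 and PEC 1 for 1. Over the list, the ratio of the highest to the lowest mouse by TMM-scaled counts had a median of 2.04 in Control mice, 1.58 in HN mice and 1.42 in PEC mice. In the lists below, PEC 3 was highest of its group for 6 of 6 tested neutrophil markers and 5 of 5 endothelial markers. It was highest for 3 of 7 plasmacytoid dendritic cell, 1 of 7 B and plasma cell and 2 of 10 tubule and podocyte markers. Neither granzyme was called with all mice by edgeR, and with 1 mouse left out Gzmb was called higher in HN mice without PEC 1 (log2 fold change 2.13, edgeR adjusted p = 0.0482). Of these 10, 2 fell in PEC against HN mice, Cd3d and Cd4, and 7 were higher in PEC than in Control mice. The fall count was 0 without HN 8, HN 12 or PEC 1, 1 without HN 4, PEC 2 or PEC 3, and 3 without Control 2 or Control 4. It was 5 with library totals, with limma at a pseudocount of 0.1 and at an unadjusted p, 4 with only the groups compared, 1 with no filter and 0 with a fold of at least 2. Klrb1c, an NK cell marker, was at 0 in Control 5. Ptprc, carried by all leukocytes, was at 0.635, 0.866 and 0.694 nFPKM in Control mice, 4.34, 4.49 and 3.17 in HN mice and 0.689, 1.97 and 0.774 in PEC mice. It was higher in HN mice without overlap (log2 fold change 2.46 ± 0.38, edgeR adjusted p = 0.000693). It fell in PEC against HN mice (log2 fold change -1.79 ± 0.37, edgeR adjusted p = 0.00456). The part of these cells in the changes of the members was not tested.

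Plasmacytoid dendritic cells are the strongest producers of type I interferon, and their defining markers Siglech and Ccr9 were at or below 0.186 and 0.087 nFPKM. Their list summed to 1797, 1513 and 1516 nFPKM in Control mice, 614, 719 and 533 in HN mice and 1765, 1394 and 1747 in PEC mice. Klk1, a gene that kidney tubules express, was the most abundant of it, and Bst2 is itself a member. In this list 3 of 7 were higher and 2 lower in HN mice, 1 higher and 1 lower in PEC against HN mice, and 1 higher and 2 lower in PEC against Control mice. The higher count of HN mice was 2 without any 1 of the Control or HN mice, and 2 were higher in PEC against HN mice without HN 8, 2 lower without PEC 3, and 2 higher in PEC against Control mice without Control 4, PEC 1 or PEC 2. Neutrophil markers were higher in HN mice in 2 of 6 tested. None was called in PEC against HN mice, where 1 was lower at an unadjusted p, with DESeq2 and with limma at a pseudocount of 0.1, and 2, 1 and 1 without PEC 3, Control 4 and Control 5. Of the 6, 1 was higher in PEC than in Control mice, and 2 without Control 4 or PEC 1. Their sum was 8.48, 15.8 and 5.63 nFPKM in Control mice, 29.6, 15.7 and 17.3 in HN mice and 8.52, 10.3 and 27.6 in PEC mice. S100a9 was the most abundant, and Ly6g was at 0 in all Control mice, HN 4, PEC 1 and PEC 2, and Retnlg in PEC 1.

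B and plasma cell markers were higher in HN mice in 3 of 7, with 2 without Control 2, Control 4 or any 1 HN mouse. In 2 of 7 they were lower in PEC against HN mice, with 1 without HN 4. Against Control mice 1 was higher and 1 lower, and 2 lower without Control 2, HN 4 or PEC 2. They summed to 35.1, 46.0 and 38.6 nFPKM in Control mice, 50.7, 56.0 and 52.0 in HN mice and 22.4, 26.7 and 20.8 in PEC mice. Xbp1 was the most abundant. Tubule and podocyte markers went the other way, with 7 of 10 lower in HN mice, 5 higher in PEC against HN mice (3 without HN 8, PEC 1 or PEC 2) and 6 lower in PEC against Control mice. Their sum was 2715, 2952 and 2810.0 nFPKM in Control mice, 1750.0, 1483 and 1619 in HN mice and 1942, 2115 and 1767 in PEC mice, Umod being the most abundant. Endothelial markers were lower in HN mice in 1 of 5 and lower in PEC than in Control mice in 1 of 5, with 2 without PEC 3. Emcn, with the highest mean of them over the 9 mice but not over Control or HN mice, was the 1 called higher in PEC than in HN mice, a call that ended without any 1 of the Control mice, HN 8, HN 12 or PEC 3. Without PEC 3, 1 other was lower in that comparison. Their sum was 48.7, 52.1 and 56.3 nFPKM in Control mice, 44.7, 44.7 and 42.6 in HN mice and 35.9, 41.3 and 54.3 in PEC mice. With library totals and limma the lower calls of endothelial markers in HN mice and of B and plasma cell markers in PEC against Control mice were 0, and the higher calls of tubule and podocyte markers in PEC against HN mice were 3 and 2. With a fold of at least 2, only 1 tubule and podocyte marker was called higher in PEC against HN mice. The part of these cell types in the results for the members was not tested.

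Library properties differed between groups as well. Members took 0.0696%, 0.0733% and 0.0722% of all counts in Control mice, 0.185%, 0.434% and 0.212% in HN mice and 0.0852%, 0.0951% and 0.401% in PEC mice. Mitochondrial genes took 13.3%, 12.9% and 16.3%, then 6.01%, 6.22% and 6.34%, then 13.0%, 10.3% and 13.6% of counts in the same order, so that HN 8 was like the other HN mice and PEC 3 close to PEC 1. PEC 3 was the shallowest library at 57714111 counts and HN 8 the deepest at 81069646. Ribosomal RNA loci took 0.296%, 1.72% and 0.302% of counts in PEC mice and at most 0.0042% in every other library, which separates PEC mice from both other groups. The part of these properties in the results for the members was not tested.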

How the data were processed

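The authors deposited 1 table with the read count and the FPKM of 55385 genes in 9 kidney libraries, 1 per mouse. The deposited counts were used unchanged for the tests, and the FPKM that the authors computed, which correct for gene length and library size, were divided by the TMM factor of each library to give nFPKM. The processing notes of the submitters name Bowtie 0.12.2 and the builds mm8 and mm9, while 51954 of 55144 genes have the coordinates of GRCm38, which are printed here; the strand setting of the counting is not given in the sources used here. The titles of Control libraries also carry the name of the disease, and groups were taken from the stated disease state and treatment. The main test was the quasi-likelihood test of edgeR 4.0.16 in R 4.3.3, with TMM scaling, genes kept by filterByExpr (minimum count 10), 1 fit over the 3 groups and Benjamini-Hochberg adjustment. Alternatives were DESeq2 1.42.0, limma 3.58.1 on log2(FPKM + 1) and log2(FPKM + 0.1), other scalings, filters, thresholds and samples, and each mouse left out in turn. The code was tested on simulated data, in which edgeR missed more of the changed genes than it recovered; it failed the criterion set beforehand, which was then replaced by one restricted to genes with higher counts and low spread. No pair of replicates was near identical (chi-square per degree of freedom at least 62.8).

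Members were grouped into 7 roles. Values of each mouse are given for the 3 members of each role with the highest mean FPKM and for the member of each role with the largest fold among those called between PEC and HN mice; the gene with the highest mean nFPKM of each of 8 marker lists and the called genes of a pathway list are named. Of these lists, 2 genes are not reported here by themselves but remain in the counts and sums. The members and lists were chosen with earlier results of these data known. The nFPKM scale, the counts of mice that stand apart, the alternatives applied to lists and roles, the further genes whose values are printed, and the genes drawn for the pathway were chosen after values were seen.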

Additional observations from a re-analysis of the deposited data

How the results depend on the processing

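No paired analysis was possible because no 2 groups share as many as 2 replicate numbers. Over the alternatives other than leaving out a mouse, 255 of 313 member values kept their side of the threshold and their sign in HN against Control mice (3 calls lost, 44 gained, 11 signs changed), 294 of 313 in PEC against HN mice (0, 2 and 17) and 273 of 313 in PEC against Control mice (21, 12 and 7); no called member changed sign. With 1 mouse left out these were 281 of 360 (55, 18 and 6), 281 (6, 24 and 49) and 272 (64, 15 and 9). DESeq2 gave no adjusted p for Bst2, Ifi27l2a and Oas2 in HN against Control mice, nor for Ifi27l2a, Irf7 and Oas2 in PEC against Control mice. Members higher in HN mice were 34 when only those groups were fitted, where the spread of PEC mice has no part, and their median was 2.56 with library totals. In PEC against Control mice, 27 members were higher with library totals and 10 with limma at a pseudocount of 1, and 0 were lower with library totals, with limma and with a fold of at least 2. Set against tested genes of like length, the median log2 fold change of the members was 1.95 in HN against Control, -0.45 in PEC against HN and 1.64 in PEC against Control mice. Leaving out each mouse gave 7 to 33 members higher in HN mice (median 1.40 to 2.24), 1 to 30 lower in PEC against HN mice (median -1.72 to 0.21), and 3 to 26 higher and 1 to 3 lower in PEC against Control mice (median 0.40 to 2.22). Over all tested genes, those higher in HN mice went from 3777 to 7708 with library totals and 5906 with limma at a pseudocount of 0.1, and those lower from 3154 to 1286 with library totals, 1024 and 1191 with limma and 1902 with a fold of at least 2. In PEC against HN mice, higher calls went from 2875 to 1356 and 1683 with limma and 1771 with a fold of at least 2, and lower calls from 3266 to 1823 with the latter. In PEC against Control mice, higher calls went from 4053 to 6415 with library totals, and lower calls from 3731 to 1960.0 with library totals, 1485 and 1919 with limma and 2089 with a fold of at least 2. Signs that turned belonged to differences that were not called with all mice, although 3 of the turned values in PEC against HN mice were called with 1 mouse left out. Turned signs included, in HN against Control mice, Trim25 (0.06 and 0.07 with limma, -0.85 to 0.09 without a mouse, the highest without Control 2) and Samd9l (0.36 with library totals, 0.33 and 0.33 with limma); in PEC against HN mice Ifit3 (-0.43 and -0.44 with limma, -0.05 and -0.01 without HN 4 and HN 12, in all -1.32 to 0.91 without a mouse), Irf7 (-1.06 and -1.28 with limma, -2.93 to 1.23 without a mouse), Isg15 (-3.38 to 0.44), Oas1a (-2.22 to 0.15), Bst2 (-2.40 to 0.21) and Igtp (-0.78 to 1.34); and in PEC against Control mice Eif2ak2 (0.03 with library totals). The cause was not tested. The median count of the members was 1545, and the lowest, 9 for Oas3, leaves its Control levels imprecise; with 3 mice per group a member that was not called is not shown to be unchanged.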
